A study of Mus musculus with 16 samples.

Results

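The 10 genes described here are the zinc finger factors Egr1, Egr2 and Egr3, the orphan nuclear receptors Nr4a1, Nr4a2 and Nr4a3, the EGR corepressors Nab1 and Nab2, the serum response factor gene Srf and the immediate early gene Ier2. They were chosen by name from 39179 counted genes, and all 10 were among the 13305 genes that passed a filter on low counts. Their mRNA was sequenced in 16 samples of bone marrow-derived mast cells (BMMCs), which are mast cells grown here for 4 weeks with stem cell factor and IL-3 from femur and tibia marrow of male C57BL/6 mice aged 8 to 10 weeks. Cells were PEP+/+ (wild type) or PEP-/- (mutant for the PEST-domain-enriched tyrosine phosphatase PEP, the product of Ptpn22). Each genotype had 2 samples in each of 4 treatments, so n = 2 per group throughout. All groups received IgE for 3 h, given as 0.05 µg/ml in the labels. The IgE group received nothing else (sensitised cells), the IgE DNP group also received the antigen dinitrophenol at 200 ng/ml for 1 h (activated cells), the IgE DEX group received the glucocorticoid dexamethasone at 1e-07 M for 8 h, and the IgE DNP DEX group received both. The series calls its replicates biological, but how many mice or cultures gave the samples is not given in the sources used here, so p-values measure the spread between these samples only.

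Immediate early genes are transcribed within minutes of receptor signalling without new protein synthesis. After antigen cross-links IgE on its receptor, MAP kinases phosphorylate ternary complex factors bound with SRF at CArG boxes, and calcium signals act through CREB and MEF2 factors, and both routes are known to drive EGR and NR4A genes. EGR proteins bind GC-rich sites through 3 zinc fingers, while NR4A proteins are nuclear receptors that act without a known natural ligand, and NAB1 and NAB2 bind EGR proteins and repress their activity, with NAB2 itself described as an EGR target in a feedback loop.

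RefSeq promoter sequences (build GRCm38.p6) were matched for 7 of the 10 genes, and Egr1, Egr3 and Ier2 had no entry in the table used. In both strands of the 300 bases from 250 before to 50 after each start, matches were sought for the CArG box of SRF, the EGR site GCGTGGGCG, the cAMP response element TGACGTCA and its core TGACG (which the full element contains), the NR4A element AAAGGTCA and the glucocorticoid response element. The stretches of Egr2 and Srf are shown because they held CArG boxes, in capitals with the TGACG cores (read as CGTCA on the other strand). Each ends at the last base before the listed start or before the first annotated exon.
Egr2, chr10:67537619-67537868, plus strand: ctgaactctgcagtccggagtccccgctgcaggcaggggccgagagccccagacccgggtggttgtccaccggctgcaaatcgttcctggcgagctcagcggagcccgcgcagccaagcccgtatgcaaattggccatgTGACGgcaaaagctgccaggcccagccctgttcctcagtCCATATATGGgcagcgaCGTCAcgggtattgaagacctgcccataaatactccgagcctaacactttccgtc
Srf, chr17:46556176-46556412, minus strand: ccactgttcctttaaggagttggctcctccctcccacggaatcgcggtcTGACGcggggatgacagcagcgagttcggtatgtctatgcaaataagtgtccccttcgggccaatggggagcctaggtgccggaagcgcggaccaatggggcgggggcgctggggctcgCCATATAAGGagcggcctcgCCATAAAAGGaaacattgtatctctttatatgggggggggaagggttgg
The Egr2 stretch belongs to the start numbered 3 of 5 in that table. The CArG box lay at positions -72 to -63 from this start, where -1 is the last base before it, between TGACG cores at -111 to -107 and -55 to -51. Srf, itself the CArG box factor, held 2 CArG boxes at -82 to -73 and -62 to -53. Of 32851 promoters of this length, 1.63% held a CArG box and 6 (0.0183%) held at least 2.

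The 3 NR4A promoters each held 4 TGACG cores within 250 bases before the start and no CArG box. At least 4 such cores were found in that window in 45 of the 32851 promoters (0.137%), and at least 1 in 17.8%. The Nr4a3 stretch is cut where its annotated first exon begins, which leaves out the core at -147 to -143.
Nr4a1, chr15:101266596-101266845, plus strand: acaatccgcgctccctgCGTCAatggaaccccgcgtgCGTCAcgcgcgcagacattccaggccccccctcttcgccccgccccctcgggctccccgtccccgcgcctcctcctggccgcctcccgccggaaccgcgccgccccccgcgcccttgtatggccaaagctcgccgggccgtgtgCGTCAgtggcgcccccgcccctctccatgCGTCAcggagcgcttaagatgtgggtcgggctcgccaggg
Nr4a2, chr2:57124004-57124253, minus strand: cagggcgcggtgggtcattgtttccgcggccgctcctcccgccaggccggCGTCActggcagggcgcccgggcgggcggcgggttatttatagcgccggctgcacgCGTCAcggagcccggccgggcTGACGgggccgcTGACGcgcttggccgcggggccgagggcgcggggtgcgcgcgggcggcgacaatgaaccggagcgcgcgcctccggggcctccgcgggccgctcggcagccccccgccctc
Nr4a3, chr4:48045055-48045152, plus strand: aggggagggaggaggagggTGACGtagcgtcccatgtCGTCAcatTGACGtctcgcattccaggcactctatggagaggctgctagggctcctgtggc
Nab1 held 2 EGR sites, shown with 10 bases on each side because they lie in its annotated first exon.
Nab1 site 1, chr1:52500571-52500599, minus strand: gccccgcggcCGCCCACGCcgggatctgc
Nab1 site 2, chr1:52500539-52500567, minus strand: actcggccgcGCGTGGGCGggagccggag
The EGR site was present in 0.612% of all promoters, and 7 (0.0213%) held at least 2. Nab2 held no match to any of the motifs at its 1 listed start, with an upstream stretch at chr10:127666711-127666953 on the minus strand. That stretch lies inside the Nab2 gene model, which extends to 127668568. The sequence before that end of the gene was not searched. None of the 7 genes held the full element TGACGTCA (1.79% of promoters), AAAGGTCA (1.51%) or the glucocorticoid response element (0.00913%). A match describes letters in the window and not a bound site.

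Library totals ran from 8612531 to 22143526 assigned reads (median 12814043.5). Levels are given as CPM, read counts scaled by library size with TMM factors. Ptpn22 was at 11.3 to 175 CPM in the 8 PEP+/+ samples and at 0 to 3.03 CPM in the 8 PEP-/- samples. All 10 mast cell markers averaged above 1 CPM, and their sum was 67900 to 107000 CPM. Markers of neutrophils (7 genes, sum at most 2.35 CPM), eosinophils (3 genes, at most 0.521), lymphocytes (6 genes, at most 3.41), dendritic cells (4 genes, at most 2.48) and stroma (4 genes, at most 5.65) were at or near 0. The 8 macrophage and monocyte markers summed to 23.9 to 94.5 CPM. Most of this was Cd68 (8.74 to 43.3 CPM) and Ccr2 (0.937 to 68.4 CPM), with Adgre1 at 1.05 to 6.38 CPM and C1qa at 0. The 5 erythroid and megakaryocyte markers summed to 1940 to 3920 CPM, nearly all of it Itga2b. Fewer cells of a type and less RNA per cell cannot be told apart in these bulk samples.

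Antigen raised Egr1, Egr2 and the 3 NR4A genes above their level in sensitised cells in both genotypes, and Egr3 by the same test in PEP-/- cells. In PEP+/+ cells 5 of the 10 genes were called higher with DNP, namely Egr1, Egr2, Nr4a1, Nr4a2 and Nr4a3, and in PEP-/- cells the same 5 with Egr3 and Nab2. Calls are at an adjusted p below 0.05 in edgeR's quasi-likelihood test with Benjamini-Hochberg adjustment over the 13305 genes, of which 4.01% were called higher in PEP+/+ and 4.69% in PEP-/- cells. Unless a fit with the replicate as a block is named, samples were not paired by replicate number. No member was called lower. The median log2 fold change of the 10 genes was 3.76 in PEP+/+ and 3.90 in PEP-/- cells, against 0.01 and -0.02 over all tested genes.

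**Figure D1:**
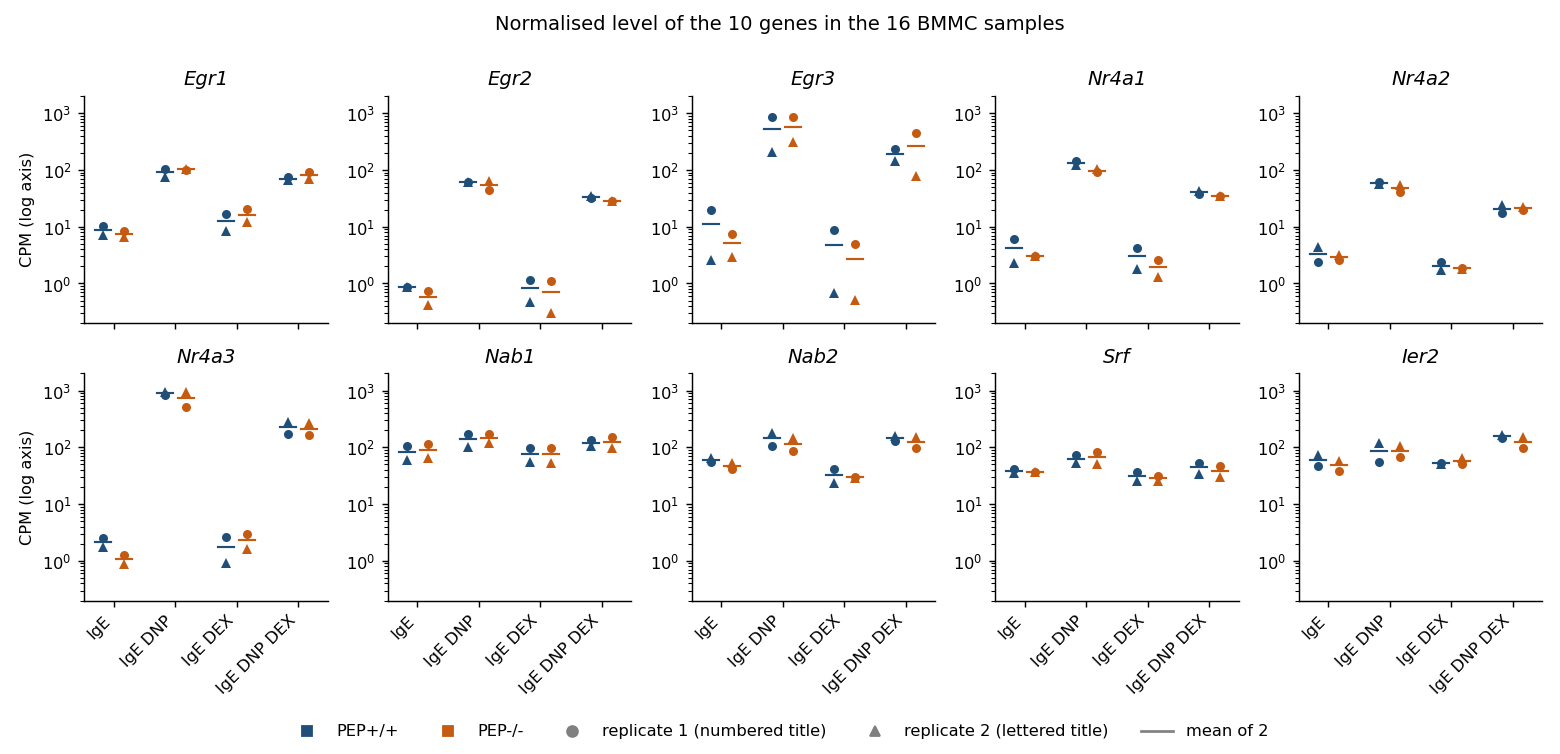
Level of each of the 10 genes in CPM on a log axis (vertical) by treatment (horizontal), with PEP+/+ samples in blue and PEP-/- samples in orange, replicate 1 as circles, replicate 2 as triangles and the mean of 2 as a line. The EGR and NR4A genes sit low without DNP and high with it in every panel, and the circles of Egr3 lie above the triangles in all 8 conditions.

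Nr4a3 (chr4:48045153-48086447, plus strand) had the steepest change of the members. It encodes the orphan receptor NOR1. In PEP+/+ cells it was at 2.50 and 1.74 CPM with IgE and at 840.2 and 947 CPM with IgE DNP, a log2 fold change of 8.71 ± 0.63 (SE), or 418-fold, with an adjusted p of 2.03e-05 in edgeR. In PEP-/- cells it went from 1.28 and 0.874 CPM to 507 and 943 CPM, a log2 fold change of 9.42 ± 0.66 (adjusted p = 1.47e-05). The sensitised values rest on 14 to 34 reads per sample, and the lowest activated sample was far above the highest sensitised sample. Nr4a1 (chr15:101254269-101274795, plus strand), which encodes NUR77, was at 6.02 and 2.25 CPM with IgE and at 142 and 125 CPM with IgE DNP in PEP+/+ cells, and at 3.00 and 3.03 against 93.0 and 102 CPM in PEP-/- cells. Its log2 fold changes were 5.00 ± 0.50 and 5.01 ± 0.51, with a difference of 0.02 ± 0.59 between genotypes. Nr4a2 (chr2:57106830-57124003, minus strand), which encodes NURR1, rose from 2.35 and 4.34 CPM to 60.4 and 55.7 CPM in PEP+/+ and from 2.64 and 3.24 CPM to 41.4 and 54.8 CPM in PEP-/- cells, with log2 fold changes of 4.12 ± 0.32 and 4.02 ± 0.32. All 6 of these calls held in edgeR whichever of the 16 samples was left out.

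Per kb of exon, the NR4A mRNA pool also changed its make-up. Nr4a3 made up 8.07 to 15.4% of the summed CPM per kb of the 3 NR4A genes in IgE samples and 69.7 to 78.7% in IgE DNP samples, with no overlap. The other two went the other way, Nr4a1 from 32.1 to 63.3% with IgE to 14.6 to 21.9% with IgE DNP and Nr4a2 from 21.4 to 53.4% to 6.62 to 8.41%, both with no overlap.

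Among the EGR genes, Egr2 was nearest to silent before antigen. Egr2 (chr10:67535475-67542188, plus strand), described as a brake on lymphocyte activation, was at 0.882 and 0.867 CPM in PEP+/+ IgE samples and at 61.4 and 60.6 CPM with IgE DNP. In PEP-/- cells it was at 0.728 and 0.411 CPM and then at 44.5 and 63.5 CPM. The log2 fold changes were 6.11 ± 0.49 and 6.61 ± 0.51 (edgeR adjusted p = 3.96e-05 and 2.57e-05), and both calls held whichever sample was left out. Egr1 (chr18:34859823-34864984, plus strand), the founding member of the family, was already detectable in sensitised cells. It was at 10.2 and 7.03 CPM with IgE and at 106 and 76.2 CPM with IgE DNP in PEP+/+ cells, and at 8.29 and 6.63 against 100.1 and 105 CPM in PEP-/- cells. Its log2 fold changes of 3.40 ± 0.38 and 3.79 ± 0.39 (edgeR adjusted p = 0.000337 and 0.000157) were the smallest of the called EGR and NR4A changes.

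Egr3 (chr14:70077203-70082614, plus strand), often induced together with Egr2, reached the highest CPM of the EGR genes but differed widely between replicates. It was at 19.9 and 2.60 CPM with IgE and at 858 and 204 CPM with IgE DNP in PEP+/+ cells, and at 7.38 and 2.88 against 849 and 306 CPM in PEP-/- cells. The groups did not overlap in either genotype. The sample with a number as its title was higher than the one with a letter in 8 of 8 conditions, by 1.61 to 13.2 times (median 4.88). The log2 fold change was 5.55 ± 1.5 in PEP+/+ cells, not called (edgeR adjusted p = 0.0542), and 6.84 ± 1.60 in PEP-/- cells, called (adjusted p = 0.0245). A fit with the replicate as a block called both, with adjusted p = 1.9e-06 and 4.76e-07. Without the block, the PEP-/- call was lost without PEP-/- IgE replicate 1, PEP-/- IgE DNP replicate 1 or PEP-/- IgE replicate 2 (adjusted p up to 0.222).

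The corepressors had smaller log2 fold changes than the EGR genes. Nab2 (chr10:127660918-127668568, minus strand) was at 55.9 and 63.7 CPM with IgE and at 107 and 180.0 CPM with IgE DNP in PEP+/+ cells, and at 40.8 and 51.9 against 85.7 and 148 CPM in PEP-/- cells. Both activated samples lay above both sensitised samples in each genotype. The log2 fold change was 1.26 ± 0.36 in PEP+/+ cells (edgeR adjusted p = 0.0677) and 1.33 ± 0.36 in PEP-/- cells (adjusted p = 0.0481). The latter call was lost in 9 of 16 fits with 1 sample left out (adjusted p up to 0.378), and was kept without either PEP+/+ IgE DEX, PEP+/+ IgE DNP or PEP-/- IgE DNP DEX sample or without PEP-/- IgE DNP replicate 1. Both Nab2 changes were called in DESeq2 (adjusted p = 0.0149 and 0.00676) and with the replicate block (0.00581 and 0.00319). Nab2 overlaps Stat6 and Nemp1 on the other strand, and whether the counting used strand is not stated, so its counts are uncertain to that extent. Stat6, at 122 to 243 CPM, had log2 fold changes of 0.54 ± 0.20 and 0.51 ± 0.20 with DNP, and Nemp1, at 8.18 to 27.4 CPM, had -0.62 ± 0.44 and -0.86 ± 0.43, none of them called.

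Nab1 (chr1:52457294-52500679, minus strand), the constitutive corepressor, was at 107 and 60.8 CPM with IgE and at 174 and 103 CPM with IgE DNP in PEP+/+ cells, and at 114 and 63.8 against 171 and 119 CPM in PEP-/- cells. The groups overlapped in PEP+/+ cells and lay close together in PEP-/- cells, and replicate 1 was higher than replicate 2 in all 8 conditions, by 1.27 to 1.82 times. Its log2 fold changes of 0.72 ± 0.45 and 0.70 ± 0.45 were not called (edgeR adjusted p = 0.509 and 0.492), whereas with the replicate block they were (0.00184 and 0.00127). Srf (chr17:46548329-46556175, minus strand) was at 41.4 and 35.7 CPM with IgE and at 72.2 and 52.8 CPM with IgE DNP in PEP+/+ cells, and at 37.1 and 36.6 against 83.8 and 51.5 CPM in PEP-/- cells. Its log2 fold changes of 0.70 ± 0.32 and 0.88 ± 0.32 were not called (adjusted p = 0.303 and 0.147), but were with the block (0.00748 and 0.00149). Gm26904, which overlaps Srf on the other strand, reached at most 0.305 CPM.

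Ier2 (chr8:84661331-84662852, minus strand), a nuclear immediate early protein of less defined function, was well expressed without antigen. It was at 46.1 and 72.7 CPM with IgE and at 55.8 and 119.8 CPM with IgE DNP in PEP+/+ cells, and at 37.8 and 58.1 against 67.1 and 105 CPM in PEP-/- cells. The groups overlapped in PEP+/+ cells only, and the log2 fold changes of 0.56 ± 0.39 and 0.84 ± 0.39 were not called (edgeR adjusted p = 0.582 and 0.274). The blocked fit called the change in PEP-/- cells (adjusted p = 0.00698) and not in PEP+/+ cells (0.0821). In all, the blocked fit called 9 of the 10 genes higher in PEP+/+ and all 10 in PEP-/- cells, where 11.2% and 13.3% of all genes were called higher.

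With antigen the summed EGR level went from well below that of the corepressors to about that level or above it, and most of the sum was Egr3. The summed CPM per kb of Egr1, Egr2 and Egr3 was 0.0661 to 0.157 times that of Nab1 and Nab2 in the 4 IgE samples and 0.941 to 3.22 times in the 4 IgE DNP samples. Egr3 made up 57.1 to 84.5% of the EGR sum in the latter, while Egr1 (20.3 and 22.9 CPM per kb in PEP+/+ and PEP-/- means) and Egr2 (18.0 and 15.9) averaged below Nab1 (33.8 and 35.3) and Nab2 (48.9 and 39.7). In PEP+/+ IgE samples the highest member per kb was Ier2 (39.0 ± 12.3 CPM per kb, SD), above Nab1 (20.5 ± 7.95) and Nab2 (20.3 ± 1.87), which overlapped each other, and the 6 EGR and NR4A genes all averaged below 3 CPM per kb. In PEP+/+ IgE DNP samples Nr4a3 (149 ± 12.6) and Egr3 (121 ± 105) were the highest and overlapped, and Nr4a2 (14.3 ± 0.825) was the lowest. In PEP-/- IgE DNP samples Egr3 (131 ± 87.1) and Nr4a3 (121 ± 51.5) changed places and again overlapped.

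**Figure D2:**
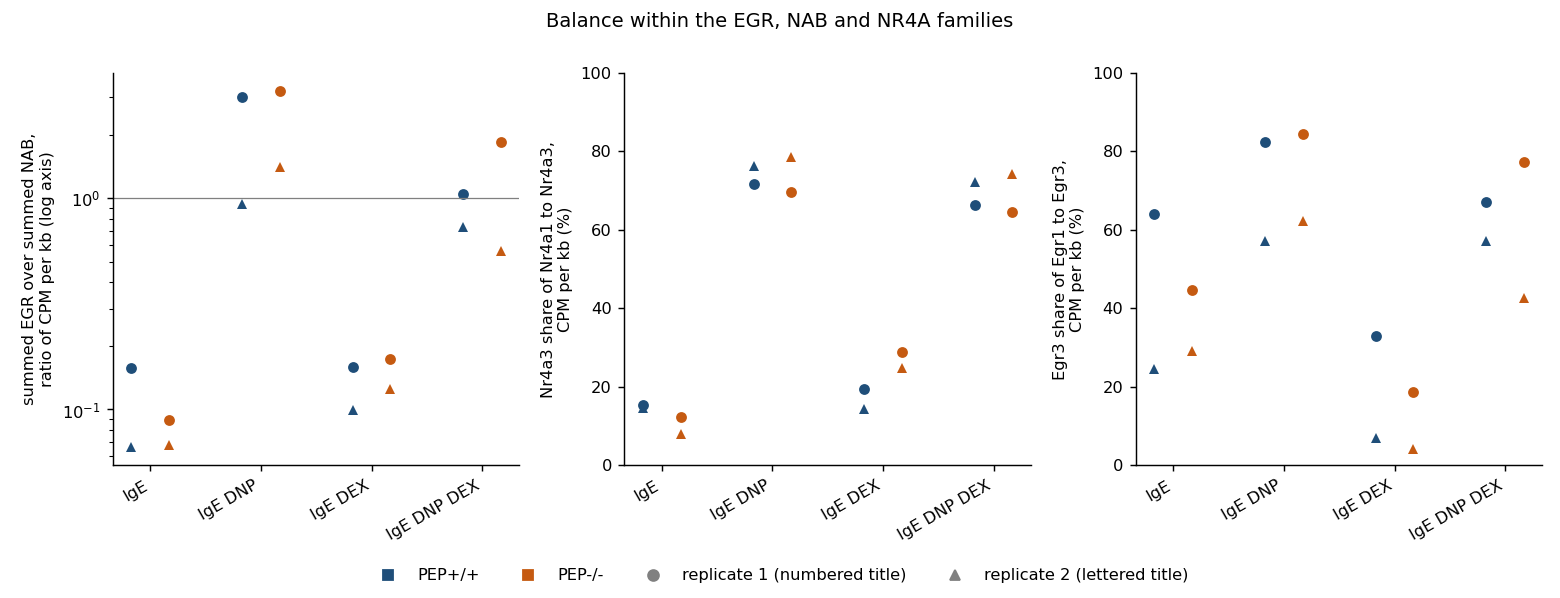
Balance within the families by treatment (horizontal) in each of the 16 samples, from levels in CPM per kb. The left panel plots the summed EGR over the summed NAB level on a log axis, and the other panels the percent share of Nr4a3 in the NR4A sum and of Egr3 in the EGR sum. The Nr4a3 share lies between 69.7 and 78.7% in the 4 IgE DNP samples, above all samples without DNP.

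Under dexamethasone antigen still raised Egr1, Egr2, the 3 NR4A genes and Nab2 in both genotypes. Compared with IgE DEX, IgE DNP DEX gave 7 of the 10 genes called higher in PEP+/+ cells, where 2.95% of all genes were called, and 7 in PEP-/- cells, where 2.99% were. The seventh call was Ier2 in PEP+/+ and Egr3 in PEP-/- cells, and Nab1 and Srf were called in neither. No member was called lower. The median log2 fold change of the 10 genes was 2.92 in each genotype, against -0.03 and -0.01 over all genes. With the replicate block, 10 and 9 members were called higher, against 11.7% and 10.3% of all genes. Fitted on the conditions compared alone, none of the 7 PEP-/- calls passed.

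Nr4a3 was at 2.61 and 0.925 CPM with IgE DEX and at 175 and 284 CPM with IgE DNP DEX in PEP+/+ cells, and at 2.96 and 1.63 against 162 and 264 CPM in PEP-/- cells. The log2 fold changes of 7.06 ± 0.59 and 6.49 ± 0.58 (edgeR adjusted p = 7.71e-05 and 0.000135) correspond to 134-fold and 89.9-fold. Nr4a1 rose by a log2 fold change of 3.75 ± 0.48 and 4.07 ± 0.50 and Nr4a2 by 3.36 ± 0.32 and 3.51 ± 0.33, in PEP+/+ and PEP-/- cells in turn. Egr2 was at 1.17 and 0.463 CPM with IgE DEX and at 32.3 and 35.0 CPM with IgE DNP DEX in PEP+/+ cells, a log2 fold change of 5.41 ± 0.48, and in PEP-/- cells it was 5.20 ± 0.48. Egr1 had the smallest changes of this set, 2.49 ± 0.36 and 2.34 ± 0.36 (adjusted p = 0.0031 and 0.00421). The PEP-/- call of Egr1 was lost without PEP-/- IgE DEX replicate 2 (adjusted p = 0.073).

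Egr3 was at 8.86 and 0.673 CPM with IgE DEX and at 236 and 146 CPM with IgE DNP DEX in PEP+/+ cells, and at 4.93 and 0.509 against 439.6 and 79.1 CPM in PEP-/- cells. Its log2 fold change was 5.36 ± 1.5 in PEP+/+ cells (edgeR adjusted p = 0.0813) and 6.47 ± 1.58 in PEP-/- cells (adjusted p = 0.0455). The PEP-/- call was lost in 10 of 16 fits with 1 sample left out, with adjusted p up to 0.301, and was kept without any 1 of the PEP+/+ IgE, PEP+/+ IgE DEX or PEP+/+ IgE DNP samples. Both were called with the replicate block (2.75e-06 and 2.78e-06).

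Nab2 rose with antigen under DEX in both genotypes. It was at 41.8 and 23.6 CPM with IgE DEX and at 129 and 160.0 CPM with IgE DNP DEX in PEP+/+ cells, and at 30.5 and 29.0 against 96.3 and 149 CPM in PEP-/- cells. The log2 fold changes of 2.15 ± 0.37 and 2.04 ± 0.37 (edgeR adjusted p = 0.00793 and 0.0102) were called in both genotypes. The PEP+/+ call was lost without PEP+/+ IgE DEX replicate 2 (adjusted p = 0.111), and the PEP-/- call without PEP-/- IgE DEX replicate 1, PEP-/- IgE DEX replicate 2 or PEP-/- IgE DNP DEX replicate 2 (up to 0.123). Ier2 was at 51.9 and 51.8 CPM with IgE DEX and at 147 and 164 CPM with IgE DNP DEX in PEP+/+ cells, a log2 fold change of 1.58 ± 0.39 (adjusted p = 0.0495). That call was kept in only 2 of 16 fits with 1 sample left out, those without PEP+/+ IgE DNP replicate 1 or 2, and otherwise its adjusted p went up to 0.295. In PEP-/- cells the Ier2 value was 1.11 ± 0.39 (adjusted p = 0.175). Under the replicate block Ier2 was called in both genotypes (0.000107 and 0.00188).

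Nab1 and Srf were not called under DEX. Nab1 had log2 fold changes of 0.63 ± 0.45 and 0.73 ± 0.45 and Srf had 0.51 ± 0.32 and 0.41 ± 0.32. With the replicate block Nab1 was called in both genotypes (adjusted p = 0.00331 and 0.0017) and Srf in PEP+/+ cells (0.0396) and not in PEP-/- cells (0.108).

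**Figure D3:**
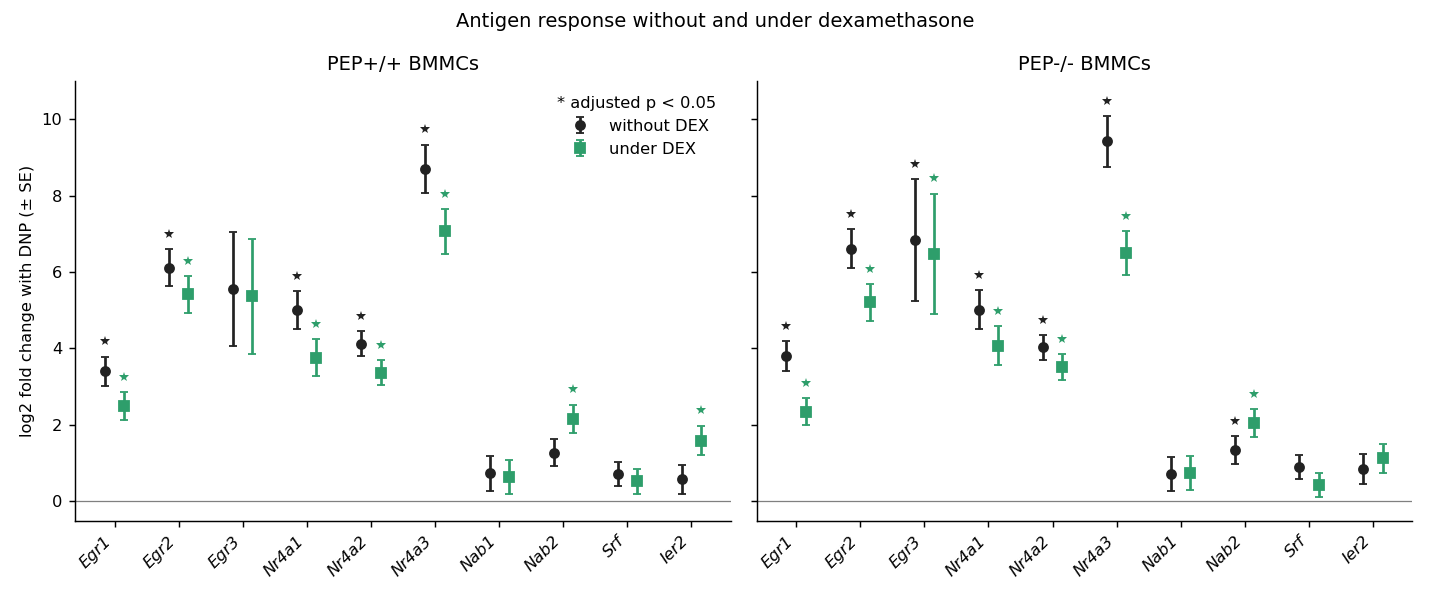
Log2 fold change with DNP (vertical, ± SE) of each gene (horizontal) in PEP+/+ cells (left) and PEP-/- cells (right), without DEX as black circles and under DEX as green squares, with a star where the adjusted p is below 0.05. Nr4a3 falls from 8.71 to 7.06 and from 9.42 to 6.49 between the 2 settings, while Nab2 goes from 1.26 to 2.15 and from 1.33 to 2.04.

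In activated cells the members called lower with dexamethasone in the fit without the replicate block were NR4A genes. Of the 10 genes, 2 were called lower in IgE DNP DEX than in IgE DNP samples in PEP+/+ cells, Nr4a2 and Nr4a3, where 1.05% of all genes were called lower, and 1 in PEP-/- cells, Nr4a2, where 1.19% were. None was called higher by edgeR or by DESeq2, or had a higher value at an unadjusted p below 0.05. Of all genes, edgeR called 1.98% and 2.09% higher, and DESeq2 called 462 and 455 genes higher. The blocked fit called 1 member higher, Ier2 in PEP+/+ cells, where 1212 of all genes were. It also called Egr2 and Srf lower in both genotypes and Egr3 in PEP-/- cells, where 9.76% and 9.33% of all genes were called lower. The median log2 fold change of the 10 genes was -0.69 and -0.86, against -0.03 and 0.01 over all genes.

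Nr4a2 was at 60.4 and 55.7 CPM with IgE DNP and at 17.3 and 24.1 CPM with IgE DNP DEX in PEP+/+ cells, and at 41.4 and 54.8 against 19.6 and 22.6 CPM in PEP-/- cells. The groups did not overlap, and the mean with DEX was 35.7% and 44.0% of that without. The log2 fold changes were -1.48 ± 0.29 (edgeR adjusted p = 0.016) and -1.19 ± 0.28 (adjusted p = 0.0463). The PEP+/+ call was lost without PEP+/+ IgE DNP replicate 1, PEP+/+ IgE DNP replicate 2 or PEP+/+ IgE DNP DEX replicate 1 (adjusted p up to 0.173). The PEP-/- call was lost in 14 of 16 such fits (up to 0.324) and kept without PEP+/+ IgE replicate 1 or 2. Fitted on the compared conditions alone, neither Nr4a2 call passed. Nr4a3 fell to 25.7% of its mean in PEP+/+ cells, with a log2 fold change of -1.96 ± 0.46 (adjusted p = 0.0439). This call was lost in 10 of 16 fits (up to 0.326) and kept without any 1 of the PEP+/+ IgE DEX, PEP-/- IgE DNP or PEP-/- IgE DNP DEX samples. In PEP-/- cells the mean was 29.4% of that without DEX and the log2 fold change -1.77 ± 0.46 (adjusted p = 0.0665).

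Nr4a1 was at 142 and 125 CPM with IgE DNP and at 37.1 and 43.3 CPM with IgE DNP DEX in PEP+/+ cells, and at 93.0 and 102 against 35.2 and 34.2 CPM in PEP-/- cells. The groups did not overlap, but the log2 fold changes of -1.73 ± 0.43 and -1.49 ± 0.43 missed the threshold (edgeR adjusted p = 0.0552 and 0.0958). DESeq2 called all 3 NR4A genes lower in both genotypes, where it called 355 (PEP+/+) and 354 (PEP-/-) of all genes lower. Egr2 was at 55.1% and 53.1% of its activated mean with DEX, with log2 fold changes of -0.86 ± 0.38 and -0.91 ± 0.38 that were not called (adjusted p = 0.303 and 0.284). Egr1 kept 77.3% and 79.5% of its mean (-0.37 ± 0.34 and -0.33 ± 0.34), and Egr3 36.0% and 44.9% (-1.48 ± 1.25 and -1.15 ± 1.24), the latter with overlapping groups.

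No difference was called for the corepressors. Nab2 with DEX was at 101% and 105% of its mean without DEX, with log2 differences of 0.01 ± 0.35 and 0.07 ± 0.35, and Nab1 at 86.2% and 87.1%, with -0.22 ± 0.44 and -0.20 ± 0.44. The groups overlapped for both genes, and none of these differences was called (edgeR adjusted p = 0.902 to 0.993). Srf was at 70.6% and 56.4% (-0.51 ± 0.32 and -0.82 ± 0.32, not called). Ier2 was the only member with a higher mean under DEX in both genotypes by more than its SE, at 177% and 145%, with log2 differences of 0.83 ± 0.39 and 0.54 ± 0.39 that were not called (adjusted p = 0.347 and 0.655). The EGR to NAB ratio per kb was 0.563 to 1.84 in IgE DNP DEX samples, and Nr4a3 made up 64.6 to 74.2% of the NR4A sum. Both ranges overlapped those without DEX, and both values were lower with DEX in each of the 4 pairs of samples with the same replicate number.

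With the replicate block, 5 members were called lower and Ier2 higher in PEP+/+ cells, and 6 lower in PEP-/- cells, where 9.76% and 9.33% of all genes were called lower. The genes added in both genotypes were Nr4a1 (adjusted p = 0.000575 and 0.00141), Egr2 (0.0219 and 0.0153) and Srf (0.0362 and 0.00263). The others were Nr4a3 (0.00177) and Egr3 (0.0234) in PEP-/- cells and Ier2 in PEP+/+ cells (0.00668). The summed level of the 3 basophil markers Mcpt8, Prss34 and Cd200r3, all of them detected, moved with both treatments. It was 539 to 623 CPM with IgE, 750 to 882 CPM with IgE DNP, 228 to 392 CPM with IgE DEX and 431 to 479 CPM with IgE DNP DEX. Cd200r3, at 198 to 837 CPM, made up most of this sum, beside Mcpt8 at 8.03 to 62.8 and Prss34 at 10.2 to 59.4 CPM. With DNP and no DEX, edgeR called 0 of the 3. With DNP under DEX it called 0 (PEP+/+) and 1 (PEP-/-) higher, where 2.95% and 2.99% of all genes were. With DEX, only Cd200r3 was called lower in both genotypes, in activated and in sensitised cells. The part of the marker sum in the results of these genes was not tested.

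**Figure D4:**
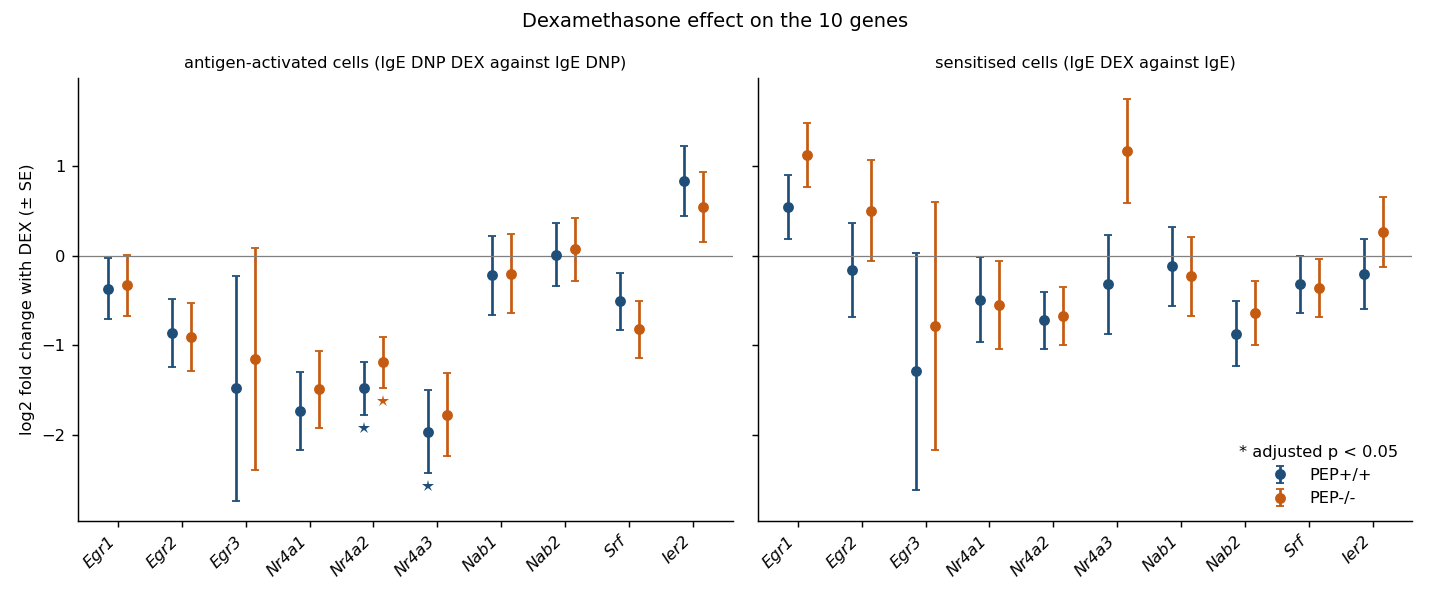
Log2 fold change with DEX (vertical, ± SE) of each gene (horizontal) in activated cells (left) and sensitised cells (right), PEP+/+ in blue and PEP-/- in orange, with a star where the adjusted p is below 0.05. The NR4A genes lie between -1.96 and -1.19 in activated cells, where Nab2 lies at 0.01 and 0.07, and no star stands in sensitised cells.

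Without antigen, no member was called changed by dexamethasone. In edgeR 0 of 10 were called in either genotype, where 3.18% (PEP+/+) and 3.34% (PEP-/-) of all genes were called in either direction. Unadjusted p was below 0.05 for 2 members in PEP+/+ (Nr4a2 and Nab2) and 1 in PEP-/- cells (Egr1). The same held for 1646 (PEP+/+) and 1630 (PEP-/-) of the 13305 tested genes. DESeq2 called 0 members in each, where it called 781 (PEP+/+) and 786 (PEP-/-) of all genes. Egr1 was at 8.29 and 6.63 CPM with IgE and at 20.3 and 11.9 CPM with IgE DEX in PEP-/- cells, which do not overlap. The log2 fold change was 1.12 ± 0.36 (adjusted p = 0.151), and with the replicate block it was called (adjusted p = 0.00328). In PEP+/+ cells the Egr1 groups overlapped at 10.2 and 7.03 against 16.7 and 8.41 CPM, with 0.54 ± 0.36. Nab2 had log2 fold changes of -0.87 ± 0.36 and -0.64 ± 0.36, from 55.9 and 63.7 to 41.8 and 23.6 CPM in PEP+/+ cells and from 40.8 and 51.9 to 30.5 and 29.0 CPM in PEP-/- cells, without overlap in either. Nr4a2 had -0.72 ± 0.32 and -0.67 ± 0.32, Nr4a1 -0.49 ± 0.47 and -0.55 ± 0.49, and Nr4a3 -0.32 ± 0.55 and 1.17 ± 0.58, in PEP+/+ and PEP-/- cells in turn. For the other members the values were -0.16 ± 0.52 and 0.50 ± 0.56 for Egr2, -1.29 ± 1.32 and -0.78 ± 1.38 for Egr3, -0.12 ± 0.44 and -0.23 ± 0.44 for Nab1, -0.32 ± 0.32 and -0.36 ± 0.32 for Srf, and -0.20 ± 0.39 and 0.26 ± 0.39 for Ier2. The glucocorticoid response itself was visible in these samples, since 3 of 6 check genes were called higher in both genotypes, among them Tsc22d3, which encodes GILZ, with log2 fold changes of 3.12 ± 0.26 and 3.13 ± 0.26.

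Whether dexamethasone changed the antigen response itself was tested as the difference between the response under DEX and the response without it. In edgeR 0 of 10 members were called in PEP+/+ cells, in PEP-/- cells or on the average of the genotypes, where 0.015%, 0.00752% and 0.331% of all genes were. Unadjusted p was below 0.05 for 1, 2 and 5 members in turn, and for 292, 202 and 485 of the 13305 tested genes. DESeq2 called 0, 1 and 1 members, in both cases Nr4a3, where it called 39, 35 and 96 of all genes. On average the Nr4a3 response was smaller under DEX by a log2 difference of -2.29 ± 0.51 (adjusted p = 0.161), the Egr1 response by -1.18 ± 0.35 (0.588), that of Nr4a1 by -1.09 ± 0.45 and that of Egr2 by -1.05 ± 0.47. The values for Nr4a2, Srf, Egr3 and Nab1 were -0.64 ± 0.30, -0.33 ± 0.32, -0.28 ± 1.29 and -0.03 ± 0.44. Nab2 and Ier2 had differences of the other sign, 0.80 ± 0.36 and 0.65 ± 0.39, not called. Each difference is also the DEX effect in activated cells minus that in sensitised cells. For Egr1 the first was -0.37 and -0.33 and the second 0.54 and 1.12, in PEP+/+ and PEP-/- cells in turn. For Nab2 they were 0.01 and 0.07 against -0.87 and -0.64, and for Nr4a3 -1.96 and -1.77 against -0.32 and 1.17. Levels without antigen therefore enter these differences too. With the replicate block, Egr1 (adjusted p = 0.00776) and Nr4a3 (0.0197) were called on average, where 1.57% of all genes were. In PEP-/- cells the block called Egr1 alone of the members, where 53 of all genes were called.

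No difference between the genotypes was called for any member. The antigen response without DEX, the antigen response under DEX, the DEX effect in activated cells and the DEX effect in sensitised cells each gave 0 of 10 members called in edgeR for PEP-/- against PEP+/+, where 0.0% of all genes were called. Unadjusted p was below 0.05 for 0 members in each of these comparisons, and DESeq2 and the blocked fit called 0 as well. For the response without DEX the differences ran from -0.10 ± 0.42 (Nr4a2) to 1.29 ± 1.80 (Egr3), the widest SE being that of Egr3. Within each of the 4 treatments, 0 members differed between genotypes, where 0.00752% of all genes (1 gene) did, and on the average of the treatments 0 members differed, where 1.59% of all genes did. There too 0 members had an unadjusted p below 0.05, against 1884 of all tested genes. DESeq2 called 0 members on that average, where it called 668 of all genes.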

How the data were processed

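RNA was sequenced from 16 BMMC samples in 8 conditions with 2 samples each. The authors prepared stranded mRNA libraries, read them as paired ends, aligned the reads with TopHat2 to GRCm38 with an Ensembl annotation and deposited raw counts per gene from HTSeq, whose strand setting is not given in the sources used here. The 5 summary lines per file that name no gene held 29.053 to 49.618% of the total and were left out. The IgE dose in the labels differs from that in the methods text, and the labels are followed. Of 39179 gene IDs, 37607 (95.99%) matched a symbol, and coordinates and exon lengths are from a later GENCODE annotation of the same build.

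The counts were tested with edgeR 4.0.16 in R 4.3.3 (TMM, filterByExpr by condition with a minimum count of 10, quasi-likelihood F test, 1 mean for each of 8 conditions, all 16 samples, 8 residual degrees of freedom, Benjamini-Hochberg over 13305 genes, calls below 0.05). The edgeR fit without the block was tested on simulated counts for DNP in PEP+/+ cells, with each sample drawn independently. CPM are counts over TMM-scaled library sizes, and CPM per kb are divided by summed exon length. DESeq2 1.42.0, its size factors, no filter, a floor of 10 reads in all samples, a fit to the compared conditions alone, a replicate block and leaving out each sample were the alternatives. Replicate 1 is the sample titled with a number and replicate 2 that with a letter. Same-numbered samples deviated together in all 28 pairs of conditions (r = 0.453 to 0.799, median 0.718), so the numbers paired the samples in the replicate block. The labels do not say what a set shares. The main fit has no block, so differences between the sets enter its SEs. For Egr3 with DNP in PEP+/+ cells the SE was 1.5 in the main fit and 0.5 with the block. A gene not called in the main fit can therefore be called with the block. No samples of a condition agreed within counting noise (chi-square per degree of freedom 50.36 to 149.5).

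Named genes are all 10 members, up to 4 genes per list called in both genotypes with the largest change, and for each EGR and NR4A gene the 3 most like it, of which the first is given. The members and lists were chosen with earlier results of these data known. Protein sequences were not analysed here. A result for a gene of the list of kinases and factors upstream is not reported here.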

Additional observations from a re-analysis of the deposited data

How the results depend on the processing

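Of 90 gene values given in the report, DESeq2's size factors changed no call, DESeq2 added 7 calls, dropping the filter on low counts added 13 and the replicate block added 24, beyond which the block changed no other call of these values. Fitting only the conditions compared added 2 and lost 10. Requiring at least 10 counts in every sample, which leaves out Egr2 and Egr3, added 1, lost 2 (Ier2 under DEX in PEP+/+ and Nr4a2 with DEX in activated PEP-/- cells, adjusted p = 0.0579 and 0.0529) and turned the Nab2 difference with DEX in activated PEP+/+ cells to -0.01. The cause of these changes was not tested.

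In counts of members called, the replicate block gave 9 for DNP in PEP+/+, 6 for DEX in activated PEP+/+ and 6 in PEP-/- cells, 1 for DEX in sensitised PEP-/- cells, and 1 (PEP-/-) and 2 (average) for the DNP by DEX difference. No filter gave 4 and 4 for DEX in activated cells, 1 and 1 for DEX in sensitised cells and 1 (PEP-/-) and 2 (average) for the DNP by DEX difference. DESeq2 gave 3 for DEX in activated PEP-/- cells and 1 (PEP-/-) and 1 (average) for the DNP by DEX difference. For DEX in activated PEP-/- cells the minimum of 10 counts gave 0. The conditions compared alone gave 0 there and 0 for DNP under DEX in PEP-/- cells, in fits with fewer samples.

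With each of the 16 samples left out in turn, the lone sample of its group being assumed to vary like the others, the counts ran from 4 to 7 for DNP under DEX in PEP-/- cells (4 without PEP-/- IgE DEX replicate 2), 0 to 3 for DEX in activated PEP+/+ cells (0 without PEP+/+ IgE DNP replicate 1, PEP+/+ IgE DNP replicate 2 or PEP+/+ IgE DNP DEX replicate 1) and 0 to 1 for DEX in activated PEP-/- cells. Of 1440 refitted gene values, 68 lost a call, 8 gained one and 36 changed sign, none of the latter called. The ranges of the values that changed sign were -0.12 to 0.98 for Ier2 with DNP in PEP+/+ cells. With DEX in activated cells they were -0.51 to 0.24 (PEP+/+) and -0.54 to 0.10 (PEP-/-) for Nab1, and -0.28 to 0.47 and -0.28 to 0.52 for Nab2. With DEX in sensitised PEP+/+ cells they were -0.04 to 0.96 for Egr1, -0.91 to 0.42 for Egr2, -4.06 to 0.84 for Egr3, -1.24 to 0.41 for Nr4a1, -1.20 to 0.30 for Nr4a3, -0.59 to 0.35 for Nab1 and -0.48 to 0.17 for Ier2. In PEP-/- cells they were -0.81 to 1.00 for Egr2, -3.28 to 0.03 for Egr3, -0.73 to 0.26 for Nab1 and -0.01 to 0.61 for Ier2. For the average DNP by DEX difference they were -1.35 to 1.10 for Egr3 and -0.28 to 0.22 for Nab1.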

Other observations

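The lists of related genes, chosen with earlier results of these data known, put the members in context. Of 37 other immediate early genes, 33 were tested, and 23 (PEP+/+) and 25 (PEP-/-) were called higher with DNP and 0 lower, with median log2 fold changes of 2.75 and 2.91 against 0.01 and -0.02 over all genes. Of all genes, 4.01% and 4.69% were called higher. Atf3 (11.63 ± 0.97 and 9.96 ± 0.85, SE), Trib1 (8.61 ± 1.11 and 8.37 ± 1.06), the fourth EGR gene Egr4 (7.61 ± 1.07 and 8.38 ± 1.00) and Fosb (7.10 ± 1.03 and 8.10 ± 1.09) led the list. Under DEX 18 and 16 of the listed genes were called higher with DNP, where 2.95% and 2.99% of all genes were. With DEX in activated cells Atf3 (-3.05 ± 0.55 and -2.43 ± 0.53) and Csrnp1 (-1.11 ± 0.24 and -1.03 ± 0.24) were called lower in both genotypes and Dusp1, a MAP kinase phosphatase, was called higher (1.64 ± 0.25 and 2.07 ± 0.25). In sensitised cells 2 and 5 genes of this list were called higher with DEX and 0 lower. Of all genes, 3.18% and 3.34% were called in either direction. Dusp1, called in both genotypes, had log2 fold changes of 4.24 ± 0.30 and 5.31 ± 0.31.

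Of 12 tested genes out of 16 described as EGR targets elsewhere, 3 were called higher with DNP in both genotypes and 0 lower, with medians of 0.09 and 0.03. Of all genes, 4.01% and 4.69% were called higher. The 3 target genes were Pdgfa, a growth factor (3.13 ± 0.31 and 3.27 ± 0.31), Cd44, an adhesion receptor (1.93 ± 0.22 and 2.27 ± 0.22), and Tgfb1 (1.07 ± 0.25 and 1.22 ± 0.25). Pdgfa and Cd44 were also called higher under DEX. Of the 5 SRF cofactor genes, Mrtfa was called lower with DNP (-0.81 ± 0.20 and -0.91 ± 0.20) and 0 were called higher. Of all 13305 genes, 252 (PEP+/+) and 336 (PEP-/-) were called lower. With the replicate block 2 of these cofactor genes were called lower in each genotype, where 1318 and 1714 of all genes were. Of 19 tested kinases and factors upstream, Nfatc1 (2.62 ± 0.29 and 2.56 ± 0.29) and Mapk14 (0.85 ± 0.18 and 0.86 ± 0.18) were called higher with DNP in both genotypes. In this list 0 (PEP+/+) and 1 (PEP-/-) were called lower, against 252 and 336 of all genes. Of all genes, 4.01% and 4.69% were called higher. The median of this list was 0.10 in each genotype. The blocked fit called 3 higher and 3 lower in PEP+/+ and 3 higher and 2 lower in PEP-/- cells. It called 11.2% and 13.3% of all genes higher, and 1318 and 1714 genes lower. Of the 12 genes of the NuRD complex, with which NAB proteins act, edgeR called 0 in the response to DNP in either genotype. Their median log2 fold change was 0.14 in both. In each genotype 1 had an unadjusted p below 0.05, as did 2259 (PEP+/+) and 2500 (PEP-/-) of the 13305 genes. The replicate block called 1 (PEP+/+) and 4 (PEP-/-) higher, where 11.2% and 13.3% of all genes were called higher. Of the 3 RXR genes, whose products pair with some NR4A receptors, 0 (PEP+/+) and 1 (PEP-/-) were called higher with DEX in activated cells by edgeR, against 1.98% and 2.09% of all genes. In each genotype 2 had an unadjusted p below 0.05, as did 2022 and 1868 of the 13305 genes. The blocked fit called 1 and 2 higher, and 1212 and 1166 of all genes. The gene called by edgeR was Rxra (0.59 ± 0.25 and 1.04 ± 0.25, edgeR adjusted p = 0.275 and 0.0438), named after its values were seen. With DNP edgeR called 0 of the 3 RXR genes in either genotype, with medians of -0.42 and -0.68. The blocked fit called 1 and 2 of them lower with DNP, where 1318 and 1714 of all genes were.

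By the Pearson r of log2 CPM over the 16 samples, given as a description, the gene outside the members most like each was Fgd3 for Egr1 (0.990), Gadd45b for Egr2 (0.994), Eaf1 for Egr3 (0.991), Fam107b for Nr4a1 (0.989), Olr1 for Nr4a2 (0.988, with Ccl4 first at a prior count of 0.5 in place of 2) and Csrnp1 for Nr4a3 (0.995). Within the members Egr2 and Nr4a3 were closest (0.994). The samples fall into those with and without antigen, and all genes share the same libraries and depth.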
